A study of Mus musculus with 39 samples.

Results

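F12, the gene of coagulation factor XII, and Tmsb4x, the gene of the actin-binding peptide thymosin beta-4, are 2 of the 25239 genes that were quantified in N2a cells, a mouse neuroblastoma line, after transfection of RfxCas13d and a crRNA. Both genes were chosen by their measured levels, because each differed strongly between 2 crRNAs against the same target. F12 was selected on Map2 crRNA 1 and Map2 crRNA 3, and Tmsb4x on Sik3 crRNA 1 and Sik3 crRNA 8. The values of F12 under the Map2 crRNAs and of Tmsb4x under the Sik3 crRNAs are therefore given as a description, with no test. Neither gene is the target of any crRNA used here.

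RfxCas13d is an RNA-guided nuclease that cuts RNA, and its crRNA carries a spacer that pairs with the target transcript. Factor XII is the zymogen that starts the contact pathway of coagulation: once activated, it cleaves prekallikrein and factor XI, and kallikrein releases bradykinin from kininogen. It is made mainly by the liver. Thymosin beta-4 holds actin monomers in a pool that cannot polymerize, and it is abundant in many cell types, among them developing neurons and leukocytes.

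All 39 libraries were made from poly(A) RNA of cells collected 48 h after transfection, and all cells, controls included, received plasmids for RfxCas13d and a crRNA. In WT N2a cells there were 10 groups of 3 libraries. Of these, 2 were sets of non-targeting (NT) crRNA, named NT (WT set) and NT (N set). The others each received 1 crRNA: number 1 or 8 against Sik3, 1 or 3 against Map2, 4 or 6 against Mapt, and 3 or 5 against Rbfox3. A further 9 libraries came from N2a cells that stably express tdTomato, a line made with lentivirus and limiting dilution according to the methods, with 3 libraries each of NT, tdTomato crRNA 4 and tdTomato crRNA 7. The NT (WT set) was the control of 7 crRNAs, so those comparisons share their control libraries. The NT (N set) was the control of Rbfox3 crRNA 5. Nothing in the labels says that replicates were separate cultures, so p-values measure only the spread between libraries, which may be technical.

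Values are FPKM, fragment counts scaled to transcript length and to library depth. Estimated from the steps of the FPKM values, the libraries held 10405661 to 16874158 reads in WT cells and 2199690 to 4299935 in the tdTomato line. Every library name carries a prefix, LDK, LDL or LDM, which entered the fit as a covariate. In 8 of the WT groups replicates 1 and 2 were LDK and the remaining library LDL, the NT (N set) and Rbfox3 crRNA 5 were entirely LDL, and in the tdTomato line replicate 1 was LDM and the others LDK. The targets were low where they should be: mean Map2 was 8.46 FPKM in NT (WT set), 2.14 under Map2 crRNA 1 and 1.00 under Map2 crRNA 3, and mean Sik3 was 7.98, 2.18 under Sik3 crRNA 1 and 1.23 under Sik3 crRNA 8. Tubb3, a tubulin of neurons, averaged 330.0 FPKM over the WT libraries. The 10 hepatocyte markers, albumin among them, summed to between 0.0043 and 1.02 FPKM. The 2 NT sets differed from each other in 46.4% of all genes in the limma fit with the library prefix as a term. This count, 5358 genes, was 1891 in a fit of the compared groups only, and the prefix separates the NT sets in part, since the N set is all LDL.

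The 4 spacers on which the genes were chosen are shown first, since the choice rests on a difference between them. They are written 5' to 3', and capitals mark the bases that would pair at the closest site, the one with the fewest mismatches, in the sense strand of an annotated F12 transcript (for the Map2 spacers) or Tmsb4x transcript (for the Sik3 spacers).
Map2 crRNA 1: aCTcTCAaTTTtcacacgTCCA
Map2 crRNA 3: GAGcAttGTCaagTGaGccAaC
Sik3 crRNA 1: CAAgcacTGCCAGGtGccaCAt
Sik3 crRNA 8: GtCGCTCtgtgaATcAgGcaTC

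The Map2 spacers match exon 14 of a 15-exon Map2 transcript without mismatch, in the coding sequence, at chr1:66438258-66438279 for crRNA 1 and chr1:66438316-66438337 for crRNA 3 (GRCm38, plus strand). The Sik3 spacers match 1 of 7 annotated Sik3 transcripts, a short one, in the 3' UTR of its last exon, at chr9:46202074-46202095 for crRNA 1 and chr9:46202652-46202673 for crRNA 8 (plus strand). Map2 crRNA 1 and crRNA 3 share 3 of 22 positions, and Sik3 crRNA 1 and crRNA 8 share 6.

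The closest sites in F12 and Tmsb4x, shown so that the spacers can be held against them, are written as the transcript strand, with capitals for the bases that pair with the spacer.
F12 site of Map2 crRNA 1: TGGAgcccaagAAAgTGAaAGa
F12 site of Map2 crRNA 3: GgTtcCgCAaggGACtgTcCTC
Tmsb4x site of Sik3 crRNA 1: cTGgacCgCCTGGCAtcttTTG
Tmsb4x site of Sik3 crRNA 8: GAatCgTaATgaggcGAGCGcC

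Both F12 sites lie in the coding sequence and have 10 mismatches in 22 bases. The site of Map2 crRNA 1 spans 2 exons and that of Map2 crRNA 3 lies at chr13:55420793-55420814 in exon 10 of 14 (minus strand). At least as few mismatches to these spacers were found in 97.3% (Map2 crRNA 1) and 97.3% (Map2 crRNA 3) of 11344 expressed genes. The Tmsb4x site of Sik3 crRNA 1 lies in the 5' UTR at chrX:167208477-167208498 with 9 mismatches, as few as in 89.5% of genes. The Tmsb4x site of Sik3 crRNA 8 lies in the last exon at chrX:167207488-167207509 with 10 mismatches, as few as in 97.7% of genes. Across all 11 spacers, the NT and tdTomato spacers included, the closest sites in both genes had 7 to 10 mismatches and no paired run longer than 7 bases. A match is a count of letters and says nothing of cutting.

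F12 (ENSMUSG00000021492.15, chr13:55417958-55426793, minus strand, GRCm38) was expressed in every library. Over the 30 WT libraries it ranged from 22.2 to 296 FPKM with a median of 140.4 FPKM, a 13.4-fold range, and rested on about 557 to 8227 reads per library. These reads are estimates, since with the best length, 1971 bases, 21 of 39 values came within 0.1 of a whole number. It lay above 85.3% of genes in its lowest library and above 99.2% in its highest. No annotated gene overlaps F12, and no other annotated transcript shares a run of 25 bases with it. The markers of liver cells were near 0 beside it, as given above.

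The difference F12 was chosen on was large in each library. In the Map2 crRNA 1 libraries F12 was 65.5, 70.2 and 44.0 FPKM. In the Map2 crRNA 3 libraries it was 259, 247 and 168 FPKM. The groups did not overlap, and the lowest Map2 crRNA 3 library lay above the highest Map2 crRNA 1 library. In NT (WT set) F12 was 183, 192 and 112 FPKM. Map2 crRNA 1 was below each NT library, and Map2 crRNA 3 overlapped them. On the log2(FPKM + 0.5) scale the fitted differences were 1.90 ± 0.22 (SE) between the crRNAs, -1.42 ± 0.22 for crRNA 1 against NT and 0.48 ± 0.22 for crRNA 3 against NT. Sorted by size among 11554 genes, these differences ranked 13, 71 and 828. In the same comparisons 35.8%, 49.7% and 33.3% of all genes were called, and nothing is read from the position of F12, which was selected on these values.

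**Figure D1:**
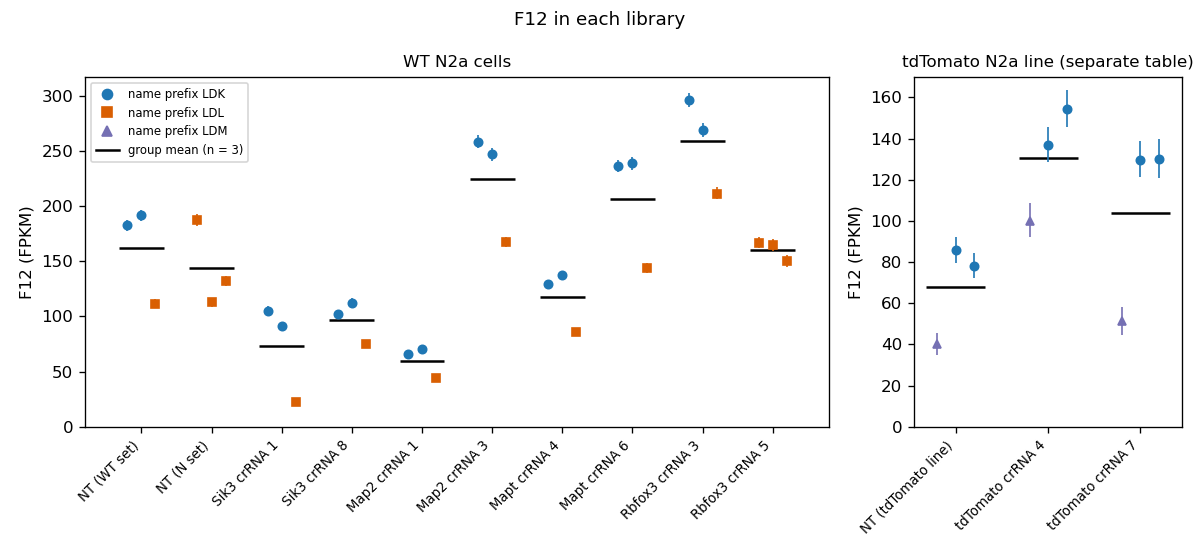
F12 in each library (y axis, FPKM) by group, WT cells on the left and the tdTomato line on the right. Each point is a library, its shape and colour the prefix of the library name, the vertical line the 95% Poisson interval of its estimated reads (counting error only) and the black bar the mean of 3 libraries. Map2 crRNA 1 has the lowest mean, 59.9 FPKM, and Rbfox3 crRNA 3 the highest, 259.0 FPKM, and the LDL library lies lowest in each mixed group.

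The Map2 libraries on which F12 was chosen were also split by library series, as a description that lends the choice no support. Among LDK libraries mean F12 was 253 FPKM under Map2 crRNA 3 and 67.8 under Map2 crRNA 1, a 3.73-fold difference, and the single LDL libraries differed 3.81-fold. F12 depended on the series as well. In all 8 WT groups that hold both kinds, the LDL library was below both LDK libraries, by 1.34-fold to 4.44-fold with a median of 1.54-fold. The largest of these gaps belonged to Sik3 crRNA 1.

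The order of the groups was almost the same in both series. From high to low, LDK means ran from Rbfox3 crRNA 3 (283 FPKM) through Map2 crRNA 3 (253), Mapt crRNA 6 (238), NT (187), Mapt crRNA 4 (133), Sik3 crRNA 8 (107) and Sik3 crRNA 1 (98.4) to Map2 crRNA 1 (67.8). The LDL libraries kept the first 6 places in this order, and only the last pair changed places, with 44.0 FPKM under Map2 crRNA 1 and 22.2 under Sik3 crRNA 1. Over all libraries, however, each of the 9 pairs of neighbours in the order of the 10 WT group means overlapped.

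**Figure D2:**
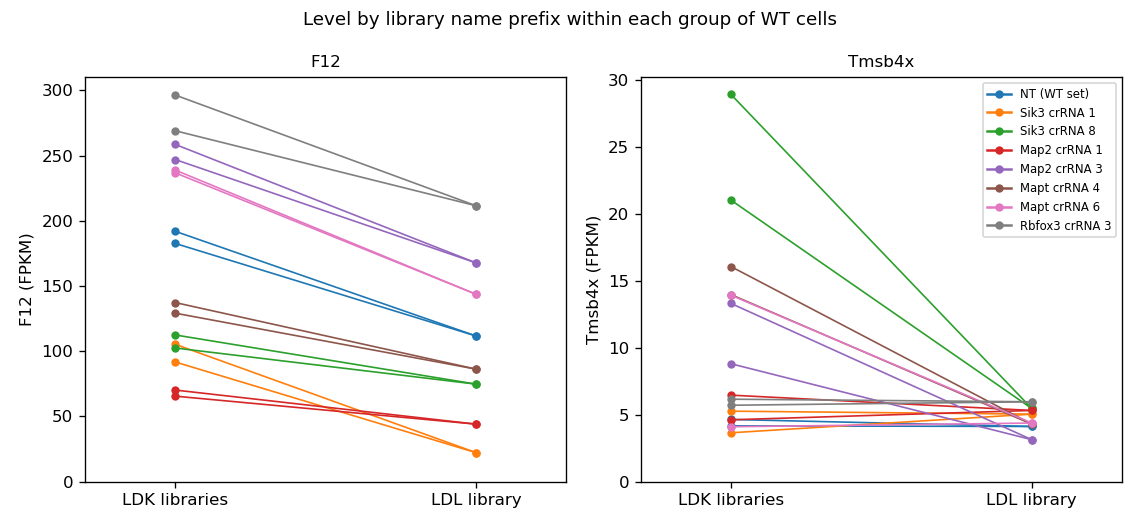
FPKM of F12 (left) and Tmsb4x (right) by library name prefix in the 8 WT groups that hold both kinds (points are libraries, and lines of 1 colour per group join each LDK library to the LDL library of its group). F12 drops from LDK to LDL in every group with the order of the groups nearly kept, whereas Tmsb4x spans 3.64 to 28.9 FPKM among LDK libraries and 3.13 to 5.95 FPKM among these LDL libraries.

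F12 was then tested in the comparisons that did not choose it. Of 13 such comparisons, F12 was significantly higher in 4, lower in 2 and did not pass in 7 (limma, Benjamini-Hochberg adjusted over all genes tested). With 3 libraries against 3 an exact permutation test of one gene cannot give a two-sided p below 0.1.

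F12 fell under both Sik3 crRNAs. In the Sik3 crRNA 1 libraries it was 105, 91.7 and 22.2 FPKM, each below every NT library (log2 difference -1.39 ± 0.22, limma adjusted p = 2.62e-05, exact p = 0.1). In the Sik3 crRNA 8 libraries it was 102, 112 and 74.7 FPKM, and the highest of them touched the range of NT (log2 difference -0.73 ± 0.22, limma adjusted p = 0.0113, exact p = 0.2). Against NT, 44.7% of all genes were called under Sik3 crRNA 1 and 42.9% under Sik3 crRNA 8, so a call alone does not set F12 apart, while by size of difference it ranked 63 and 418 of 11554. Within LDK the means were 0.526 and 0.574 times NT. The lowest library, replicate 3 of Sik3 crRNA 1, carried much of the difference under that crRNA, which was -0.88 without it (limma adjusted p = 8.73e-06). Directly compared, Sik3 crRNA 8 was 0.66 ± 0.22 above crRNA 1 (95% interval 0.20 to 1.12), which did not pass (limma adjusted p = 0.118, 2.61% of all genes called). Among LDK libraries the ratio was 1.09 and between the single LDL libraries 3.37. Without replicate 1 of Sik3 crRNA 1 the difference was 0.94 with an adjusted p of 0.0227, and without replicate 3 it was 0.16 with an adjusted p of 0.673.

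F12 also differed between the Mapt crRNAs, neither of which the choice used. The spacers of Mapt crRNA 4 and crRNA 6 overlap over most of their length, so they are not unrelated sequences. In the Mapt crRNA 4 libraries it was 129, 137 and 86.2 FPKM, and in the Mapt crRNA 6 libraries 237, 239 and 144 FPKM, with no overlap. The difference was 0.80 ± 0.22 (limma adjusted p = 0.03, exact p = 0.1) where 7.46% of all genes were called. Leaving out any 1 of the 6 libraries ended the call, with adjusted p-values of 0.06 to 0.101, and the difference then lay between 0.75 and 0.87. Neither crRNA passed against NT, at -0.45 ± 0.22 for crRNA 4 (adjusted p = 0.117, 38.6% of genes called) and 0.35 ± 0.22 for crRNA 6 (adjusted p = 0.227, 36.8% called). In the LDK libraries alone both passed, with adjusted p-values of 0.000251 and 0.00289.

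Rbfox3 crRNA 3 carried the highest F12 of the WT cells. Its libraries were at 296, 269 and 212 FPKM, all above the NT (WT set) libraries (log2 difference 0.70 ± 0.22, limma adjusted p = 0.0186, exact p = 0.1, 32.5% of genes called). The call was lost without NT replicate 1 (adjusted p = 0.0559) or without Rbfox3 crRNA 3 replicate 3 (0.109). Under Rbfox3 crRNA 5 F12 was 167, 165 and 150.0 FPKM against 187, 113 and 132 FPKM in NT (N set), and these groups overlapped (0.19 ± 0.22, 95% interval -0.28 to 0.65, adjusted p = 0.580, 25.7% called). The changes under the Rbfox3 crRNAs differed by -0.51 ± 0.32 for crRNA 5 minus crRNA 3, which did not pass (adjusted p = 0.383, 5.51% of genes called). Between the NT sets F12 differed by 0.37 ± 0.24 in the fit, N set minus WT set, and this did not pass either (adjusted p = 0.210). The plain means ran the other way, at 144 FPKM in the N set and 162 in the WT set. The fitted sign depends on the prefix term, since the WT set holds 1 LDL library (112 FPKM). Under other settings the difference lay between -0.16 and 0.37.

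**Figure D3:**
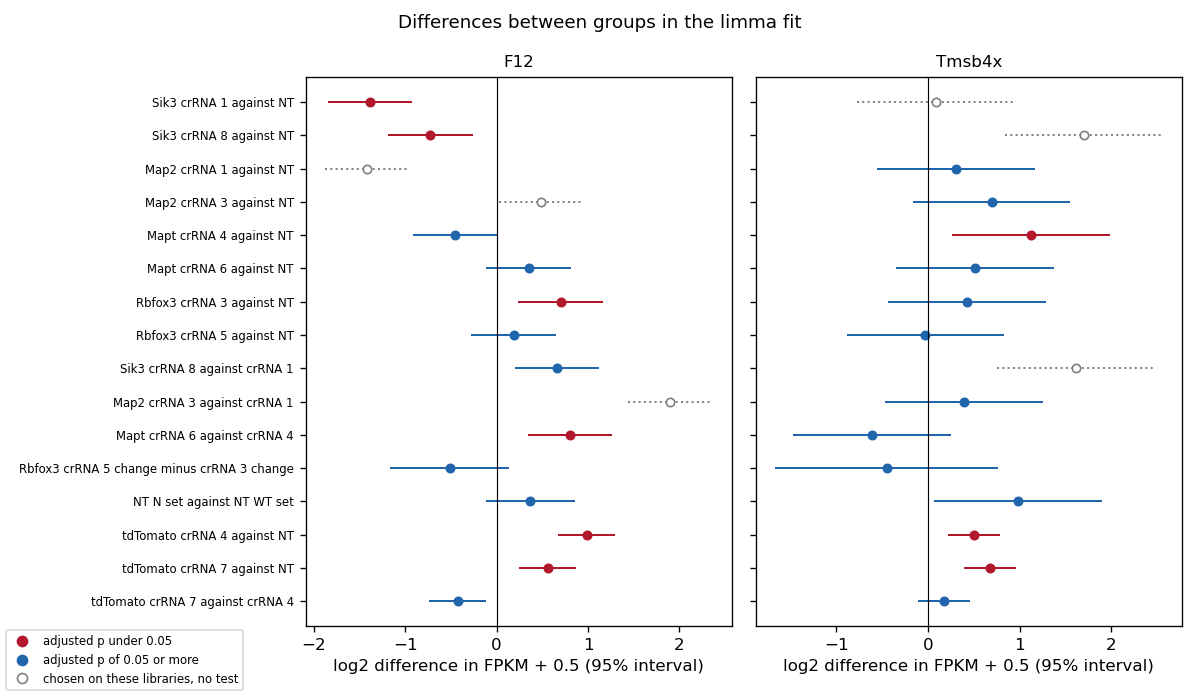
Log2 difference in FPKM + 0.5 for each comparison (x axis, points with 95% intervals of the limma fit) for F12 on the left and Tmsb4x on the right. Red marks an adjusted p under 0.05, blue a larger one, and open grey points with dotted intervals the comparisons the gene was chosen on, which have no test. Of 13 tested comparisons F12 passed in 6 and Tmsb4x in 3.

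The rest of the contact pathway was hardly expressed. Klkb1 (prekallikrein) reached at most 0.0601 FPKM in any WT library, F11 (factor XI) 0.0856 and Kng1 (kininogen) 0.229, and the fibrinogen gene Fgb 0.382. Of 30 coagulation and contact genes beside F12, 10 had enough signal to be tested. Highest among them were Lman1 and Vkorc1, with medians of 48.0 and 41.1 FPKM, which serve the export of coagulation factors and the recycling of vitamin K in many cells. F3, tissue factor, the trigger of the other coagulation pathway, had a median of 15.5 FPKM.

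Between Map2 crRNA 3 and crRNA 1, where F12 differed most, 1 of these 10 genes was higher and 3 were lower, beside 21.3% of all genes higher and 14.5% lower, and their median difference was -0.10 beside 0.02 for all genes. F10, the common factor X of both pathways, was the one that was higher (3.42 against 2.11 FPKM, log2 difference 0.59 ± 0.12, limma adjusted p = 0.000582). F3 was lower (14.5 against 18 FPKM, -0.30 ± 0.08, limma adjusted p = 0.00736), as was F5, the cofactor of factor X (3.36 against 4.38 FPKM, -0.33 ± 0.11, limma adjusted p = 0.0183). Between Map2 crRNA 1 and NT, 5 of the 10 were higher and 1 lower, beside 25.8% and 23.9% of all genes. Pros1, protein S, an anticoagulant, rose the most (3.48 against 1.61 FPKM, 0.91 ± 0.14, limma adjusted p = 1.52e-05), and F10 was the one that fell (-0.51 ± 0.12, limma adjusted p = 0.00129).

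The fibrinolysis list also holds cell surface partners of factor XII. C1qbp, known from human cells as a binding protein of factor XII and kininogen, had a median of 222 FPKM and Plaur, the urokinase receptor, 46.0 FPKM in WT cells, so both were well expressed where F12 was. Krt1, a keratin gene of the same list, was at 0 FPKM in all 30 WT libraries. Of 7 tested genes of this list, 3 were higher and 2 lower between Map2 crRNA 3 and crRNA 1, beside 21.3% and 14.5% of all genes. Their median difference was 0.13 beside 0.02 for all genes. C1qbp was among the higher (0.28 ± 0.06, limma adjusted p = 0.000789), while Plaur was at 46.6 and 46.4 FPKM and did not pass (adjusted p = 0.947). Itgb3, the integrin beta-3 subunit, was lower (9.01 against 12 FPKM, -0.40 ± 0.07, limma adjusted p = 9.84e-05).

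Of the genes next to F12 on chromosome 13, Grk6 (18.3 kb away) was expressed at 26.0 to 31.8 FPKM in all WT libraries, a far narrower range than that of F12. Grk6, a kinase of G protein-coupled receptors, passed in 1 of the 8 comparisons of a crRNA with NT, under Sik3 crRNA 8 (-0.15 ± 0.05, limma adjusted p = 0.0126). Prr7 (37.5 kb away) was higher under Map2 crRNA 3 than crRNA 1 (9.0 against 5.85 FPKM, 0.58 ± 0.15, limma adjusted p = 0.00338), the direction of F12. Rgs14, Slc34a1, Pfn3 and Mir6943 averaged under 1 FPKM.

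The genes whose levels were most like F12 over the 30 WT libraries (Pearson r of log2 values, a description across libraries that share groups, prefix and depth) were Rpl27 (0.93), Tor4a (0.92), Rnasek (0.87), H2-DMa (0.86) and Rpl32l (0.86). Without the 6 Map2 libraries these values were 0.91, 0.93, 0.88, 0.82 and 0.89. The most opposite genes were Snrnp70 (-0.88), Ggnbp2 (-0.84) and Fam193b (-0.84), and without the Map2 libraries -0.85, -0.79 and -0.79. Rpl27, a protein of the large ribosomal subunit, ranged from 55.0 to 179 FPKM, and Tor4a, a torsin-family ATPase, from 0.53 to 6.23 FPKM. Snrnp70, the U1 snRNP protein, ranged only from 100.4 to 131 FPKM. Tmsb4x was not among these genes, and the r between F12 and Tmsb4x was 0.12.

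**Figure D4:**
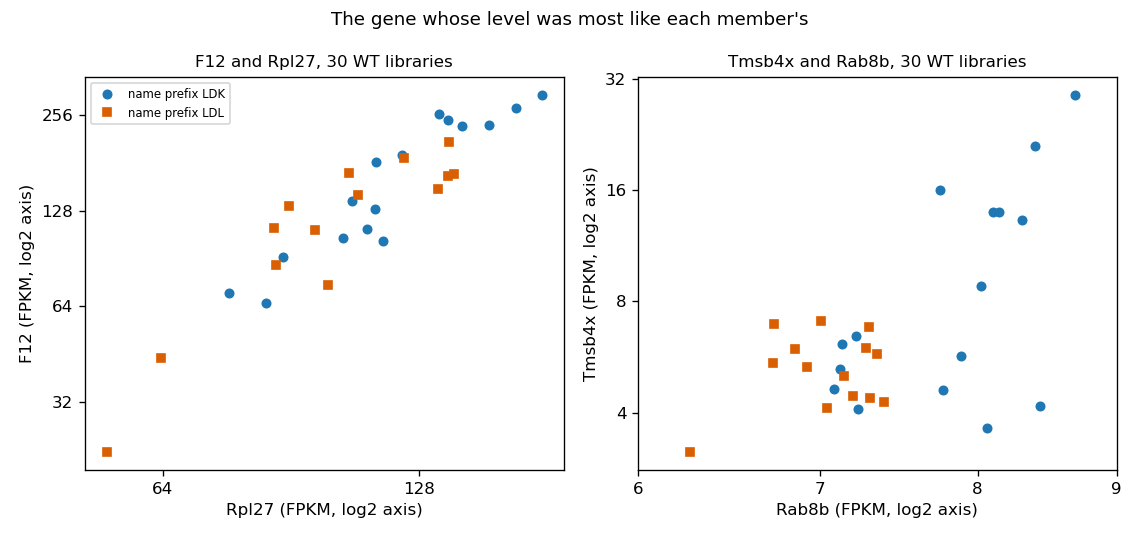
FPKM of F12 against Rpl27 (left) and of Tmsb4x against Rab8b (right) in the 30 WT libraries, all axes on a log2 scale, with colour and shape for the library name prefix. F12 and Rpl27 lie along 1 line in both series (r = 0.93), whereas Tmsb4x is spread from 3.64 to 28.9 FPKM among LDK libraries and follows Rab8b loosely (r = 0.62).

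Tmsb4x (ENSMUSG00000049775.16, chrX:167207093-167209315, minus strand, GRCm38) was low in WT N2a cells. It ranged from 3.13 to 28.9 FPKM with a median of 5.72 FPKM. With a length of 670 bases all 39 values came within 0.1 of a whole number of reads, and these were 31 to 258 reads per WT library, so counting error alone is considerable at the lower end. The 31 reads of the lowest library give a 95% Poisson interval of 2.12 to 4.44 FPKM. No annotated gene overlaps Tmsb4x, and no other annotated transcript shares a run of 25 bases with it.

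Its high values were all in LDK libraries: both LDK libraries of Sik3 crRNA 8, Map2 crRNA 3 and Mapt crRNA 4 were high, and 1 of the 2 of Mapt crRNA 6. In the Sik3 crRNA 8 libraries, on which it was chosen, Tmsb4x was 21.0, 28.9 and 5.45 FPKM. In the Sik3 crRNA 1 libraries it was 5.25, 3.64 and 5.03 FPKM, and in NT (WT set) 4.63, 4.16 and 4.11 FPKM. The high values under Sik3 crRNA 8 are both LDK libraries, and the LDL library, with a counting interval of 4.11 to 7.10 FPKM, lay in the range of the other groups. The ratio of crRNA 8 to crRNA 1 was 5.61 among LDK libraries and 1.08 between the LDL libraries. The 9 macrophage and leukocyte markers, of cells rich in thymosin beta-4, summed to 1.28 to 8.50 FPKM under Sik3 crRNA 8 and 1.24 to 8.61 FPKM under Sik3 crRNA 1, ranges that overlap almost fully, and 0 of the 9 were at 0 in all WT libraries. Both ranges pool LDK with LDL libraries, so they do not give the sums of the LDK libraries alone. In the all-LDL groups the sums were 6.60 to 11.9 FPKM (NT N set) and 8.01 to 13.5 FPKM (Rbfox3 crRNA 5).

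**Figure D5:**
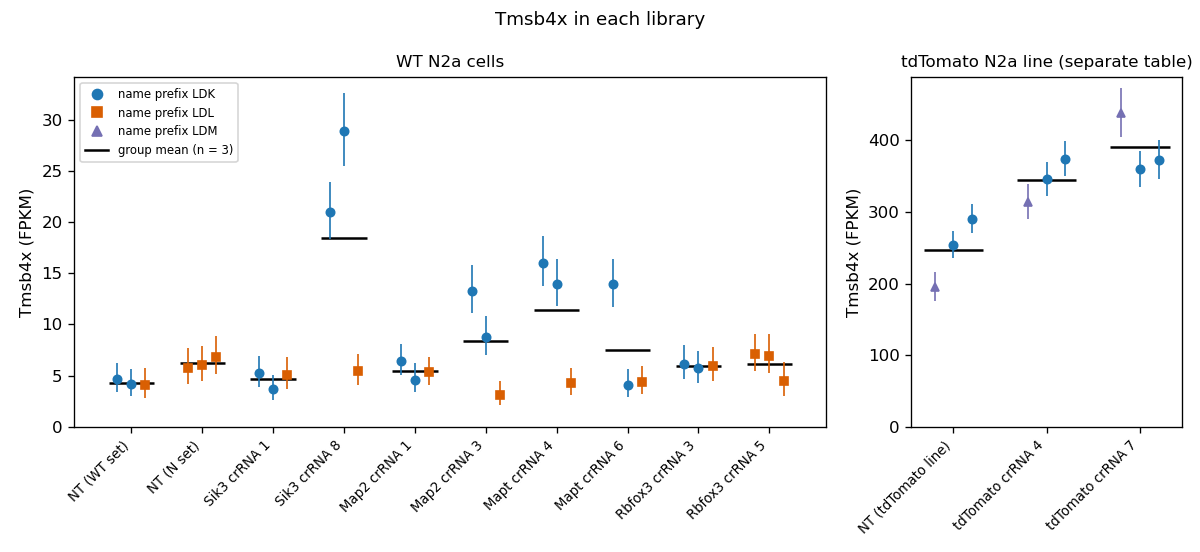
Tmsb4x in each library (y axis, FPKM) by group, WT cells on the left and the tdTomato line on the right, on different scales. Points are libraries with the prefix of the library name as shape and colour, vertical lines are 95% Poisson intervals of the reads (counting error only), and black bars are means of 3 libraries. In WT cells the values above 8 FPKM are 7 LDK libraries of Sik3 crRNA 8, Map2 crRNA 3, Mapt crRNA 4 and Mapt crRNA 6, and the tdTomato line lies between 195 and 438 FPKM.

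The fitted difference between the Sik3 crRNAs was 1.61 ± 0.42 (SE), with 1.70 ± 0.42 for crRNA 8 against NT and 0.09 ± 0.42 for crRNA 1 against NT. These values have no test. They rank 20, 35 and 8718 by size among 11554 genes, in comparisons where 2.61%, 42.9% and 44.7% of all genes were called. Nothing is read from these ranks, since Tmsb4x was selected on these libraries. Leaving out 1 library at a time moved the difference between the crRNAs between 1.27 and 2.11, which only describes the libraries of the choice.

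Tmsb4x was raised in the LDK libraries of other crRNAs as well, which the choice did not use. It was 13.3, 8.79 and 3.13 FPKM under Map2 crRNA 3, where the last library is LDL. It was 16, 14.0 and 4.28 FPKM under Mapt crRNA 4, again with the LDL library last. Under Mapt crRNA 6 it was 13.9, 4.09 and 4.37 FPKM, so that replicates 1 and 2, both LDK, differed 3.40-fold. Only 46 of 11553 genes differed as much between these 2 libraries, whose median absolute log2 difference was 0.08.

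In the remaining WT groups the highest library was at 7.08 FPKM. Tmsb4x was 6.45, 4.61 and 5.31 FPKM under Map2 crRNA 1 and 6.15, 5.69 and 5.95 FPKM under Rbfox3 crRNA 3. It was 7.08, 6.93 and 4.45 FPKM under Rbfox3 crRNA 5 and 5.75, 5.98 and 6.81 FPKM in NT (N set). All LDL libraries of WT cells, crRNA and NT alike, thus lay between 3.13 and 7.08 FPKM. All 9 pairs of neighbours in the order of the 10 WT group means overlapped.

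Of the 13 comparisons that did not use a Sik3 library, Tmsb4x was significantly higher in 3 and did not pass in 10, with 0 lower (limma, and 0 lower at an unadjusted p under 0.05). In WT cells the only call was Mapt crRNA 4 against NT (11.4 ± 6.28 against 4.30 ± 0.29 FPKM, mean ± SD, n = 3 each, log2 difference 1.13 ± 0.42 (SE), limma adjusted p = 0.0356, exact permutation p = 0.2). In that comparison 38.6% of all genes were called. The call of Tmsb4x held within LDK (3.41-fold), whereas in LDL, with 1 library on each side, the ratio was 1.04. Without NT replicate 1 or 2, or without Mapt crRNA 4 replicate 1 or 2, the adjusted p was 0.0994, 0.116, 0.142 and 0.106. For Map2 crRNA 3 against NT the difference was 0.69 ± 0.42 (95% interval -0.17 to 1.55, adjusted p = 0.212) and for Map2 crRNA 1 0.30 ± 0.42 (adjusted p = 0.571). In the LDK libraries alone Map2 crRNA 3 passed (1.21, adjusted p = 0.0355).

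Fitted over both series, the crRNAs against Map2, Mapt or Rbfox3 did not differ in Tmsb4x beyond the spread between libraries. Map2 crRNA 3 minus crRNA 1 was 0.39 ± 0.42 (95% interval -0.47 to 1.25, limma adjusted p = 0.494), and Mapt crRNA 6 minus crRNA 4 was -0.61 ± 0.42 (-1.47 to 0.25, adjusted p = 0.409). The ratio of Map2 crRNA 3 to crRNA 1 was 2.00 among LDK libraries and 0.589 between the single LDL libraries. For Mapt crRNA 6 to crRNA 4 these ratios were 0.60 and 1.02. Whether the series differ in these ratios was not tested. Mapt crRNA 6 against NT was at 0.52 ± 0.42 (adjusted p = 0.348). For the Rbfox3 crRNAs the values against NT were 0.42 ± 0.42 for crRNA 3 (adjusted p = 0.469) and -0.03 ± 0.42 for crRNA 5 (adjusted p = 0.968), and their changes differed by -0.45 ± 0.59 (adjusted p = 0.730). These intervals are wide, and all but that of Rbfox3 crRNA 5 (-0.89 to 0.83) leave room for changes of over 2-fold. The NT sets differed by 0.98 ± 0.44, N set minus WT set (adjusted p = 0.0722).

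Of the other beta-thymosins, only Tmsb10 was high enough to be tested. Tmsb10, its most abundant paralog, was at 410 to 701 FPKM in WT cells, far above Tmsb4x on this length-corrected scale, and was 571 FPKM under Sik3 crRNA 8 and 546 under crRNA 1 (log2 difference 0.09 ± 0.09, limma adjusted p = 0.681). Tmsb15a, Tmsb15b1, Tmsb15b2 and Tmsb15l reached at most 1.37 FPKM and were not tested. Between Sik3 crRNA 8 and crRNA 1, 1 of 18 tested genes for beta-thymosins, actin and monomer-binding proteins was higher and 0 were lower (limma, 3 higher and 1 lower at an unadjusted p under 0.05), beside 1.52% of all genes higher and 1.09% lower. It was Pfn2, a profilin, which also binds actin monomers (122 against 101 FPKM, 0.27 ± 0.05, limma adjusted p = 0.00474). Of 22 tested actin assembly genes 0 passed in this comparison (limma, 1 higher and 4 lower at an unadjusted p under 0.05), and of 20 tested targets of the actin-regulated factors SRF and MRTF likewise 0 (0 higher and 1 lower).

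Against NT, 6 of the 18 genes were higher under Sik3 crRNA 8 and 4 lower, beside 21.7% and 21.2% of all genes, with a median difference of 0.04 beside 0.01. Pfn2 rose most (0.72 ± 0.05, limma adjusted p = 7.73e-11), and Acta1, skeletal muscle actin, fell (0.57 against 1.83 FPKM, -1.14 ± 0.18, limma adjusted p = 2.67e-05). Actb, the main cytoplasmic actin, was slightly lower (1285 against 1430.3 FPKM, -0.15 ± 0.05, limma adjusted p = 0.0158). Of the actin assembly genes 7 were higher and 1 lower, among them Spire1, an actin nucleator (0.51 ± 0.06, limma adjusted p = 3.95e-07). Of the SRF and MRTF targets 5 were higher and 3 lower, with Ccn1, a matricellular protein, higher (6.51 against 2.80 FPKM) and Tagln, an actin-binding protein of smooth muscle, lower (0.50 against 1.73 FPKM).

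More actin assembly genes were called against NT under Sik3 crRNA 1 and Map2 crRNA 1 than under the other crRNA of those targets. For Mapt the counts were alike, with 9 higher and 0 lower under crRNA 4 and 7 higher and 2 lower under crRNA 6. There 38.6% and 36.8% of all genes were called. Directly compared, the Sik3 crRNAs differed in 0 of the 22 genes, as given above. Against NT, 14 of 22 were higher under Sik3 crRNA 1 and 1 lower, beside 44.7% of all genes called in either direction. Their median difference was 0.16 beside 0.02 for all genes. Under Map2 crRNA 1, 13 of 22 were higher and 1 lower, beside 25.8% of all genes higher and 23.9% lower, with a median of 0.20 beside 0.02. Under Map2 crRNA 3, 5 were higher and 1 lower, beside 33.3% of all genes called in either direction, with a median of 0.04 beside 0.03. Whether these counts differ between crRNAs of different targets was not tested. Between Map2 crRNA 3 and crRNA 1, 11 of 22 were lower and 0 higher (limma, 12 and 0 at an unadjusted p under 0.05), beside 14.5% of all genes lower and 21.3% higher, with a median of -0.15 beside 0.02. Spire1 was at 12 FPKM under Map2 crRNA 1, 10.2 under crRNA 3 and 7.28 in NT. Tmsb4x passed in none of the comparisons of the Map2 crRNAs.

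Of the neighbouring genes on the X chromosome, only Prps2 had enough signal to be tested. Prps2, a phosphoribosyl pyrophosphate synthetase gene 137 kb away, was at 2.37 to 4.31 FPKM in WT libraries. It did not differ between the Sik3 crRNAs beyond the spread between libraries (-0.14 ± 0.10, limma adjusted p = 0.530). Against NT, Prps2 was higher under Sik3 crRNA 1 (0.44 ± 0.10, limma adjusted p = 0.000893) and Sik3 crRNA 8 (0.31 ± 0.10, adjusted p = 0.0156). There 44.7% and 42.9% of all genes were called. Prps2 was also called higher under both Map2 crRNAs, both Mapt crRNAs and Rbfox3 crRNA 3, where 32.5% to 49.7% of all genes were called. These comparisons share the libraries of NT (WT set). Under Rbfox3 crRNA 5, set against NT (N set), Prps2 did not pass (0.09 ± 0.10, limma adjusted p = 0.555, 25.7% of genes called). Tlr7 and Tlr8, receptors for RNA of the innate immune system, were at most 0.172 and 0.0129 FPKM, and Egfl6, Gm1720 and Gm8817 at most 0.298 FPKM.

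No gene ran closely with Tmsb4x over the 30 WT libraries. The highest r were Rab8b (0.62), Gm10499 (0.55), Psmd2 (0.54), Map1s (0.53) and Dmkn (0.53), which fell to 0.55, 0.31, 0.38, 0.40 and 0.44 without the 6 Sik3 libraries. The lowest were Gm13031 (-0.66), Efemp2 (-0.63) and Mbip (-0.60), and -0.50, -0.53 and -0.51 without the Sik3 libraries. Rab8b, a GTPase of vesicle transport, ranged only from 6.27 to 8.69 FPKM. These are weak relations over libraries that share groups and prefix.

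In the tdTomato line the balance of the genes was reversed. Tmsb4x was between 195 and 438 FPKM there and ranked 135 to 344 among all genes of a library, and F12 was between 40 and 154 FPKM. Set against the mean of the WT libraries, mean Tmsb4x was 41.7-fold higher and mean F12 0.67-fold. The tables were normalized separately, so this difference was not tested, but only 22 of 12293 expressed genes, Tmsb4x included, were higher in the tdTomato line by as large a factor. A total of 35 other genes were at least 16-fold higher in the tdTomato line at 20 FPKM or more. Their summed level was 4537 to 9718 FPKM in the tdTomato line and 128 to 201 FPKM in WT libraries. It was 170.3, 163 and 176 FPKM under Sik3 crRNA 8, whose first 2 libraries were high in Tmsb4x and whose last was not. It was 162 and 156 FPKM in replicates 1 and 2 of Mapt crRNA 6, where Tmsb4x was 13.9 and 4.09 FPKM. These genes were picked from the same tables and get no test.

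Both tdTomato crRNAs raised Tmsb4x within the line. NT libraries were at 195, 254 and 291 FPKM, tdTomato crRNA 4 libraries at 314, 346 and 374 FPKM and tdTomato crRNA 7 libraries at 438, 359.9 and 373 FPKM, given in the order LDM, LDK, LDK. Every library with a tdTomato crRNA was above every NT library. The differences were 0.50 ± 0.13 for crRNA 4 (limma adjusted p = 0.0360, exact p = 0.1, 10.7% of genes called) and 0.68 ± 0.13 for crRNA 7 (limma adjusted p = 0.00844, exact p = 0.1, 18.0% called). The call for crRNA 4 was lost without any 1 of 5 of its 6 libraries, NT replicate 3 being the exception (adjusted p up to 0.140), and that for crRNA 7 was kept in each case. The crRNAs did not differ beyond the spread between libraries (0.18 ± 0.13, 95% interval -0.11 to 0.46, adjusted p = 0.590, 0.0506% of genes called).

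F12 was also higher under both tdTomato crRNAs. NT libraries were at 40, 85.8 and 78.0 FPKM, tdTomato crRNA 4 libraries at 100.1, 137 and 154 FPKM and tdTomato crRNA 7 libraries at 51.2, 129.8 and 130.2 FPKM in the same order. The LDM library was the lowest of its group in each case. Under crRNA 4 no library overlapped NT (0.99 ± 0.14, limma adjusted p = 0.00256, exact p = 0.1). Under crRNA 7 the LDM library fell inside the NT range (0.56 ± 0.14, limma adjusted p = 0.0241, exact p = 0.3), and without NT replicate 1, 2 or 3 or crRNA 7 replicate 2 or 3 the adjusted p was 0.05 to 0.0896. The crRNAs differed by -0.43 ± 0.14, crRNA 7 minus crRNA 4, which did not pass (limma adjusted p = 0.271). The median of all genes was -0.13 for crRNA 7 against NT and -0.01 after rescaling by median ratios, and F12 and Tmsb4x were then at 0.69 and 0.81.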

How the data were processed

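Poly(A) RNA was sequenced as paired-end reads. Per the methods and the submitters' processing notes, the authors used Trim Galore for trimming, Subread for alignment (mm10) and featureCounts for counting, and deposited FPKM values. The sources used here do not give tool versions, the annotation or the strand setting. Tests were run with limma 3.58.1 in R 4.3.3 on log2(FPKM + 0.5), with an intensity trend, for genes with a mean of at least 1 FPKM and the named targets. A table was fitted whole, with group and library name prefix as terms, and p-values were adjusted by Benjamini-Hochberg over its 11554 (WT) or 11853 (tdTomato line) genes. A call is an adjusted p under 0.05. The fit was tested on simulated data with normal noise and a prefix shift that was the same in all groups. That simulation does not cover a gene such as Tmsb4x, whose prefix difference varied between groups. Fold changes of low genes are understated by the 0.5 added. Both genes and all gene lists were chosen with earlier results of these data known. Genes named beside them were the 5 highest and 3 lowest by r, list members with the largest called differences, and neighbours. Library totals and member lengths were estimated from the steps of the values, with GENCODE exon lengths (GRCm38) as a start. Spacers came from the study's supplementary sequences. Poisson intervals are 95% and cover counting error only.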

Additional observations from a re-analysis of the deposited data

Results flagged for a closer look

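F12 differed between the crRNAs of a target other than the one it was chosen on. The difference was 0.80 on the log2 scale for Mapt crRNA 6 against crRNA 4 in a direct test (limma adjusted p = 0.03). Leaving out any 1 of the 6 libraries raised that p above 0.05. The spacers of these Mapt crRNAs overlap in sequence. Tmsb4x under Map2 crRNA 3 was at 2.51 times NT in the LDK libraries and at 0.760 times NT in the LDL libraries. The LDL value compares 1 library with 1, at 31 and 34 reads, whose counting intervals overlap (2.12 to 4.44 and 2.85 to 5.75 FPKM), so no change below NT was detectable at this depth. The difference between the series was not tested.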

How the results depend on the processing

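Each difference was recomputed under 10 other settings and with each library left out. No difference that had passed changed direction. Without a filter the adjusted p missed 0.05 for Tmsb4x in Mapt crRNA 4 (1.13) and tdTomato crRNA 4 (0.50) against NT and for F12 in Mapt crRNA 6 against crRNA 4 (0.80) and tdTomato crRNA 7 against NT (0.56). Without the library prefix as a term these 4 were lost too, at the same values, and so were F12 in Sik3 crRNA 8 (-0.73), Rbfox3 crRNA 3 (0.70) and tdTomato crRNA 4 (0.99) against NT. In LDK libraries only, calls were gained for Tmsb4x in Map2 crRNA 3 (1.21) and F12 in Mapt crRNA 4 (-0.49) and Mapt crRNA 6 (0.34) against NT. With all 6 NT libraries of WT cells as the control, F12 in Mapt crRNA 4 passed (-0.61), Tmsb4x in Mapt crRNA 4 did not (0.69), and Tmsb4x in Sik3 crRNA 1, which has no test, moved to -0.35. In fits of the compared groups only, F12 passed in Mapt crRNA 4 (-0.45) and Mapt crRNA 6 (0.35) and Tmsb4x in Rbfox3 crRNA 3 (0.42).

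With 1 library left out, F12 ranged from 0.75 to 0.87 between the Mapt crRNAs, 0.56 to 0.80 in Rbfox3 crRNA 3, 0.49 to 0.75 in tdTomato crRNA 7 and 0.16 to 0.94 between the Sik3 crRNAs, and Tmsb4x from 0.91 to 1.48 in Mapt crRNA 4, 0.33 to 0.61 in tdTomato crRNA 4 and -0.27 to 0.37 in Sik3 crRNA 1. With a replicate block in place of the prefix no call changed (F12 between the Mapt crRNAs 0.80, adjusted p = 0.0349, limma). In this check of the pairing, correlations between same-numbered libraries ran from -0.05 to 0.40 in WT cells and 0.08 to 0.29 in the tdTomato line. Counts of called genes moved over 1.5 times for 302 genes between the Sik3 crRNAs (199 without a filter, 188 without the prefix, 141 in LDK only, 55 in the compared groups only), 862 between the Mapt crRNAs (435 in LDK only), 637 for the Rbfox3 changes (211 in the compared groups only, 4494 with all NT libraries), 5358 between the NT sets (1891), 2973 for Rbfox3 crRNA 5 (1843), and 1273 and 2130 for tdTomato crRNA 4 and 7 (256 and 301 without the prefix, 773 and 1172 in LDK only), and 6 between the tdTomato crRNAs (3 without a filter, 1 without the prefix). Rescaling moved the share of higher among called genes by over 10 percentage points in some comparisons: from 59.6% to 45.9% for Map2 crRNA 3, 60.3% to 46.2% for Mapt crRNA 6, 58.9% to 47.5% for Rbfox3 crRNA 3, 60.2% to 71.9% for tdTomato crRNA 4 and 37.4% to 69.2% for tdTomato crRNA 7 against NT, from 60.1% to 46.5% between the Mapt crRNAs and from 16.7% to 0% between the tdTomato crRNAs. Depth limits Tmsb4x in WT cells, where 31 reads gave its lowest value.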
